A study of Mus musculus with 10 samples.

Results

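The genes described here are 40 antiviral interferon-stimulated genes of the mouse, given as a list of names and looked up by gene symbol among the 55357 gene identifiers of the deposited count tables. All 40 were found, and all 40 passed the filter on low counts in both tables, so that no member is missing from a count below. They were followed in 2 comparisons of gene counts from poly(A) RNA sequencing. The treated hearts came from mice labelled Cd163-/- and given recombinant IL-10 at 50 µg/kg/day under the skin, on set days between day 0 and day 27 (IL-10 hearts, n = 3), and their controls were hearts labelled Cd163-/- and given saline (saline hearts, n = 3). The other comparison was of Cd163-/- peritoneal macrophages (knockout, n = 2), and their controls were wild-type peritoneal macrophages (n = 2). Macrophages of both genotypes had been elicited with thioglycolate, selected by adherence and kept in 100 nM dexamethasone for 48 h. The study design gives males of 8 weeks for the heart surgery, and the Cd163-/- mice were on a C57BL/6 background. CD163 is the scavenger receptor of macrophages for haemoglobin-haptoglobin complexes, IL-10 is an anti-inflammatory cytokine, and dexamethasone is a synthetic glucocorticoid.

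Several points limit these groups as models. The saline hearts are labelled Cd163-/- too, and wild-type or unoperated hearts were not analysed here, so the heart comparison is of IL-10 within 1 labelled genotype. The study design describes constriction of the transverse aorta, which overloads the left ventricle, but the label of each heart is silent on surgery. Every macrophage library was exposed to dexamethasone, and none was untreated. Whether the replicates are different animals or cultures is not in the labels. The p-values therefore rest on the spread between these libraries alone, and that spread may be technical.

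Sequencing gave 14.1, 14.8 and 14.4 M counts (M for mega) in IL-10 hearts, against 13.5, 13.7 and 14.9 M counts in saline hearts. The macrophage libraries held 18.6 and 17.2 M counts in knockout macrophages, against 17.9 and 16.7 M counts in wild-type macrophages. Levels are given as counts per M counts of the scaled library (CPM), on which a floor of 3 counts is 0.201 to 0.222 CPM in a heart and 0.161 to 0.179 CPM in a macrophage library. Cd163 itself had 9 and 14 counts in knockout macrophages, against 352 and 205 counts in wild-type macrophages. In hearts, all labelled Cd163-/-, it had 37, 43 and 34 counts with IL-10, against 45, 47 and 57 counts with saline (adjusted p = 0.395 by edgeR). That is 2.39 to 3.16 CPM in IL-10 hearts and 3.29 to 3.65 CPM in saline hearts, above the 0.448 and 0.778 CPM of knockout macrophages and below the 20.9 and 13.0 CPM of wild-type macrophages, in tables that were scaled separately. These heart counts do not bear out the label, no wild-type heart was analysed here to set beside them, and which part of the gene was deleted is not given in the labels. The heart libraries were rich in cardiomyocyte markers, with 33480 to 38720 CPM summed over 7 genes in IL-10 hearts and 36460 to 43760 CPM in saline hearts. Macrophage markers summed over 12 genes to 25410 to 26810 CPM in knockout and 26850 to 32110 CPM in wild-type macrophages. The protocol for RNA extraction speaks of livers, whereas the tissue labels give hearts and macrophages.

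Type I interferons bind the receptor made of IFNAR1 and IFNAR2, whose kinases JAK1 and TYK2 phosphorylate STAT proteins. STAT2 and IRF9 are subunits of the factor ISGF3, which enters the nucleus and binds the interferon-stimulated response element (ISRE) in the promoters of antiviral genes. The proteins made from these genes sense viral RNA, block its translation, degrade it or hold virus particles back, and others of the group, such as USP18, shut the receptor down again. Macrophages are known to keep a low tonic level of many of them. C57BL/6 mice are known to carry an Mx1 allele that makes no functional protein, so the Mx1 values below are values of its RNA.

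Promoters of 7 members are printed to show where the letters of the ISRE stand, if present. Each line holds the 200 bases before the RefSeq start of the gene, 5′ to 3′ on the strand of the gene (RefSeq, GRCm38.p6), with each ISRE match in capitals. The match was searched on both strands as GAAA, any 2 bases and GAAA again, which reads as TTTC, any 2 bases and TTTC on the other strand, and matches may overlap.
Isg15: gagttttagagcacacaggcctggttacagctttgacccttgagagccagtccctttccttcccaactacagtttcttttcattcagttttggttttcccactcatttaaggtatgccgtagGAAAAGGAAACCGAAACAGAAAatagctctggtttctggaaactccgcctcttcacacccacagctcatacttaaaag
Ifit1: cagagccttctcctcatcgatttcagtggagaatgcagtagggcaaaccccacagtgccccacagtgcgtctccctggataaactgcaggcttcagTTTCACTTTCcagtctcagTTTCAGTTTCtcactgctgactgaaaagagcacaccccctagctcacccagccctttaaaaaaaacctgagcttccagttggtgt
Ifit3: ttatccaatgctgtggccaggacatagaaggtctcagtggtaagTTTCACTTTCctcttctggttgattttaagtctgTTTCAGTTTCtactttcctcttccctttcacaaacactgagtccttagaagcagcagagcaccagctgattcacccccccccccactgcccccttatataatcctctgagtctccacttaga
Ifit3b: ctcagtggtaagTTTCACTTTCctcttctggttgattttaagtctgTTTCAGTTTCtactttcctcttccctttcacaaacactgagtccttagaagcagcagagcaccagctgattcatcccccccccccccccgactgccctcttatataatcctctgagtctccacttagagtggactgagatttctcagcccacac
Rsad2: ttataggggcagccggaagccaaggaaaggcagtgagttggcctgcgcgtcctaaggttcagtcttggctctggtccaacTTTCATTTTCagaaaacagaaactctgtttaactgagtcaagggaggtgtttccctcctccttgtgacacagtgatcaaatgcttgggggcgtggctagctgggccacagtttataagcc
Oas1a: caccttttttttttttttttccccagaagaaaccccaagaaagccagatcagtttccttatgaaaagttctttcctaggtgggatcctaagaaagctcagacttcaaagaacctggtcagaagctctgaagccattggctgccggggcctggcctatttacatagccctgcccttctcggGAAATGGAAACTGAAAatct
Oasl2: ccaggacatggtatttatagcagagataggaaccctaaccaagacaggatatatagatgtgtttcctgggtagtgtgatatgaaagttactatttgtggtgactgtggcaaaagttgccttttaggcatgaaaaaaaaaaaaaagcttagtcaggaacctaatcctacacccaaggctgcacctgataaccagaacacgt
The Isg15 window lies at chr4:156200819-156201018 on the minus strand and holds 3 overlapping matches, the nearest beginning 66 bases before the start. Ifit1 (chr19:34640689-34640888, plus strand), Ifit3 (chr19:34583329-34583528, plus strand) and Ifit3b (chr19:34607757-34607956, plus strand) hold 2 matches each. Oas1a (chr5:120907526-120907725, minus strand) holds 2 overlapping matches at 20 and 14 bases before the start, and Rsad2 (chr12:26456453-26456652, minus strand) holds 1 at 120 bases. Oasl2 (chr5:114896734-114896933, plus strand) is shown because it was called lower in both comparisons and no such letters stand in its window. The promoter windows of the neighbours Ifit3 and Ifit3b were identical at 258 of 260 aligned bases.

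RefSeq windows of 300 bases, 250 before and 50 after a start, were given for 29 of the 40 members. An ISRE match was present in 14 of these 29 members, which is 48.3%, against 1079 of 27025 genes (3.99%). The matching members were Bst2, Ddx60, Eif2ak2, Ifi203, Ifih1, Ifit1, Ifit3, Ifit3b, Isg15, Oas1a, Oas3, Rsad2, Stat2 and Trim30a. A second motif, TTCNNNGAA, which STAT dimers bind and which reads the same on both strands, stood in 6 of the 29 members (20.7%), against 9.55% of all genes. The median log2 fold change of IL-10 over saline hearts was -0.66 for the 14 with a match and -0.59 for the 15 without. Of knockout over wild-type macrophages it was -1.49 with a match and -1.64 without. A match is a description of letters in this window only.

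**Figure D1:**
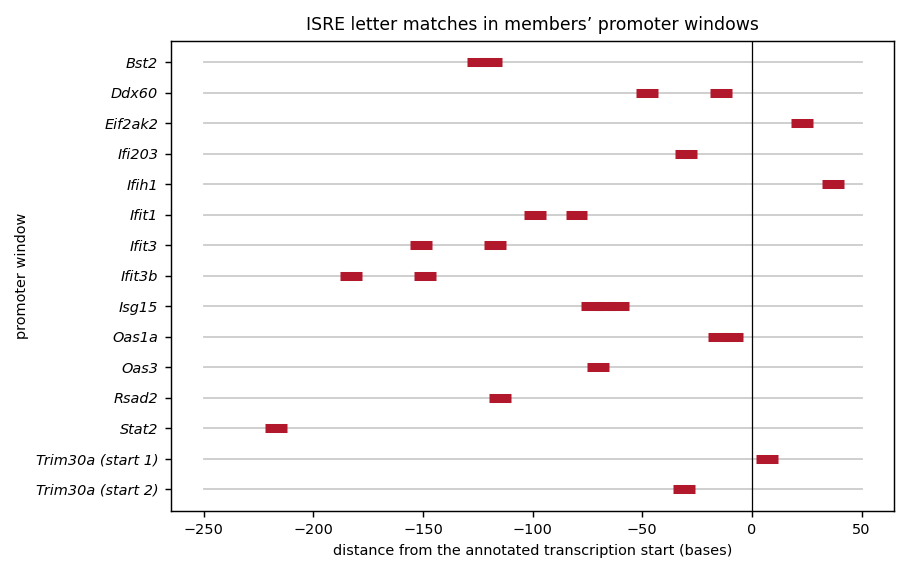
Positions of ISRE matches (horizontal axis, bases from the RefSeq start, negative before it) in the members' windows that hold at least 1 match. There is 1 row per promoter window, and Trim30a has a row for each of its starts. Most of the matches lie in the 250 bases before the start, and those of Ifih1 and Eif2ak2 and 1 of Trim30a lie after it.

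In IL-10 hearts the group was lower than in saline hearts. Of the 40 members, 23 fell at an adjusted p under 0.05 in edgeR's quasi-likelihood test with Benjamini-Hochberg adjustment over all tested genes, and 0 rose. A call below means a pass of this test. The background was 13.6% of 13718 tested genes called in either direction and 6.7% called lower (6.86% called higher), against 57.5% of the members called lower. The log2 fold change was below 0 in 40 of 40 members, as it was in 50.9% of all tested genes, and its median was -0.66 (range -2.31 to -0.08), against -0.01 over all tested genes. Every IL-10 heart lay below every saline heart in 29 members, or 72.5%, against 15.8% of all genes, and the groups overlapped in the other 11. In all, 13 members were called with a fall of 2-fold or more. The list was chosen with earlier results of these data known, so these shares describe it and are no independent test.

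Summed over the 40 members, the level was 445.9, 410.7 and 511.7 CPM in IL-10 hearts, against 731.1, 696.2 and 656.2 CPM in saline hearts. The 3 saline hearts were thus all above the 3 IL-10 hearts. No single saline library held the high values: saline 1 was the highest of all 6 hearts in 21 members, saline 2 in 12 and saline 3 in 4. Among IL-10 hearts, IL-10 2 was the lowest of all 6 in 24 members and IL-10 1 in 12. In bulk RNA, fewer cells of a type and less RNA per cell cannot be told apart.

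**Figure D2:**
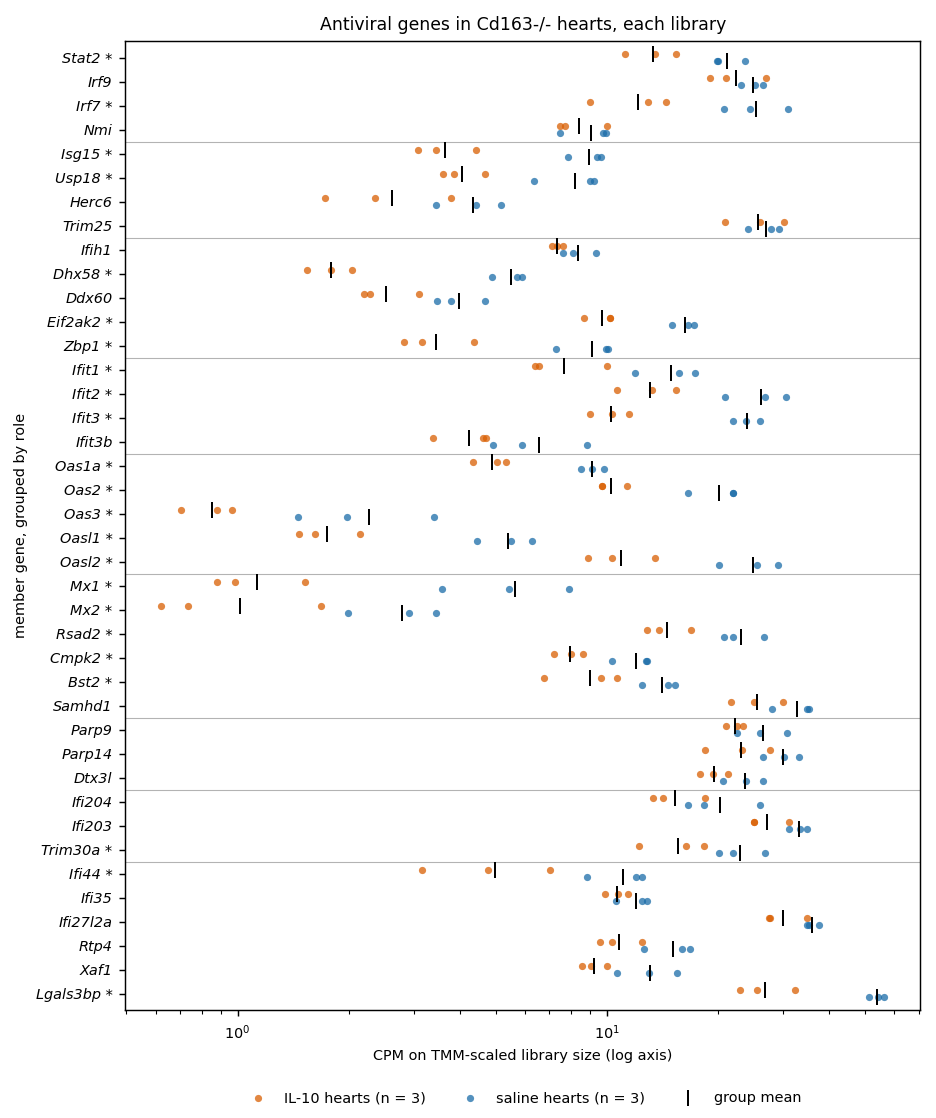
Level of each of the 40 members in each heart library (horizontal axis, CPM on a log scale, 1 row per gene, 3 IL-10 and 3 saline hearts as points, a star after the name marking a call). The 3 IL-10 hearts lie below the 3 saline hearts in 29 of 40 rows.

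Of the 4 genes of signalling and transcription, Stat2 and Irf7 fell and Irf9 and Nmi were not called. Stat2, which encodes a subunit of ISGF3, had 13.5, 11.2 and 15.4 CPM in IL-10 hearts, against 23.6, 19.98 and 19.9 CPM in saline hearts. The groups did not overlap (13.4 ± 2.08 against 21.2 ± 2.15 CPM, SD, n = 3 each, log2 fold change -0.66, SE 0.15, adjusted p = 0.00708 by edgeR), although without IL-10 2 the adjusted p was 0.0512. Irf7, the transcription factor that amplifies interferon production, had 13.0, 9.03 and 14.5 CPM in IL-10 hearts, against 31.0, 20.8 and 24.4 CPM in saline hearts. Every IL-10 heart was lower, and the log2 fold change was -1.06 (SE 0.18, adjusted p = 0.00109 by edgeR). Irf9, the DNA-binding subunit of ISGF3, had 21.0, 19.1 and 27.0 CPM in IL-10 hearts, against 26.6, 25.3 and 23.1 CPM in saline hearts. IL-10 3 was the highest of all 6 hearts, the groups overlapped and the gene was not called (log2 fold change -0.16, adjusted p = 0.494 by edgeR). Nmi, which encodes an interferon-induced binding partner of STAT proteins, was not called either (-0.10, adjusted p = 0.759 by edgeR).

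ISG15 is a ubiquitin-like protein that is attached to other proteins, and Isg15 and Usp18, the protease that removes it and blocks the interferon receptor, both fell. Isg15 (chr4:156199424-156200818 on GRCm38, Ensembl annotation) had 4.42, 3.08 and 3.44 CPM in IL-10 hearts, against 9.66, 7.87 and 9.42 CPM in saline hearts. The IL-10 hearts lay well below the saline hearts, with a log2 fold change of -1.30 (SE 0.21, adjusted p = 0.000746 by edgeR). Usp18 had 4.70, 3.599 and 3.87 CPM in IL-10 hearts, against 9.22, 6.34 and 9.03 CPM in saline hearts. The groups did not overlap (log2 fold change -1.01, SE 0.21, adjusted p = 0.00516 by edgeR). Herc6, the ISG15 ligase of the mouse, and Trim25, a ubiquitin ligase that acts on RIG-I, were not called (log2 fold changes -0.73 and -0.08, adjusted p = 0.121 and 0.766 by edgeR).

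Of the 5 RNA sensors, Dhx58, Eif2ak2 and Zbp1 fell, and Ifih1 and Ddx60 were not called. Dhx58, which encodes LGP2, a relative of RIG-I, had 1.79, 1.54 and 2.04 CPM in IL-10 hearts, against 5.71, 4.88 and 5.89 CPM in saline hearts. This was a 3.06-fold fall without overlap of the groups (log2 fold change -1.61, SE 0.25, adjusted p = 0.000683 by edgeR). Zbp1, the sensor of left-handed nucleic acid that can start necroptosis, had 2.83, 3.16 and 4.36 CPM in IL-10 hearts, against 10.1, 7.29 and 9.93 CPM in saline hearts. All IL-10 hearts were again lower (log2 fold change -1.40, SE 0.22, adjusted p = 0.000746 by edgeR). Eif2ak2, which encodes the kinase PKR that stops translation on double-stranded RNA, had a log2 fold change of -0.75 (adjusted p = 0.00292 by edgeR). Ifih1, which encodes the RNA sensor MDA5, had -0.18 (adjusted p = 0.519 by edgeR), although its IL-10 hearts all lay below its saline hearts.

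IFIT proteins bind viral RNA that lacks the marks of host mRNA, and 3 of their 4 genes fell. Ifit3 (chr19:34583531-34588731) had 11.5, 9.03 and 10.3 CPM in IL-10 hearts, against 26.0, 23.8 and 22.0 CPM in saline hearts. Each group varied little, and the difference had the smallest adjusted p of the 40 members (10.3 ± 1.25 against 23.9 ± 1.97 CPM, SD, n = 3 each, log2 fold change -1.22, SE 0.14, adjusted p = 6.06e-05 by edgeR). Ifit2 had 15.4, 10.6 and 13.3 CPM in IL-10 hearts, against 26.9, 30.6 and 20.9 CPM in saline hearts. The groups did not overlap (log2 fold change -0.99, SE 0.16, adjusted p = 0.000958 by edgeR), and Ifit1 had a log2 fold change of -0.96 (adjusted p = 0.00402 by edgeR). Ifit3b, a neighbouring copy of Ifit3, was not called, with 4.63, 3.38 and 4.71 CPM in IL-10 hearts, against 8.86, 5.91 and 4.93 CPM in saline hearts (adjusted p = 0.106 by edgeR). The Ifit3 and Ifit3b transcripts were identical at 98.0% of aligned bases, so how reads were split between this pair is uncertain.

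All 5 members of the OAS family fell. OAS enzymes make the short adenylate chains that switch on RNase L, and OASL proteins are relatives of theirs. Oas2 had 9.73, 9.70 and 11.3 CPM in IL-10 hearts, against 16.6, 22.0 and 22.0 CPM in saline hearts. Oasl2 had 10.4, 8.89 and 13.5 CPM in IL-10 hearts, against 29.2, 20.1 and 25.5 CPM in saline hearts. In both genes the lowest saline heart was above the highest IL-10 heart, with log2 fold changes of -0.98 (SE 0.15, adjusted p = 0.000629 by edgeR) for Oas2 and -1.19 (SE 0.17, adjusted p = 0.000373 by edgeR) for Oasl2. Oasl1, known in mice to curb translation of Irf7 mRNA, fell 3.09-fold. Oas1a and Oas3 had log2 fold changes of -0.90 and -1.42, and Oas3 was near the floor, at 0.703 to 0.967 CPM in IL-10 hearts and 1.46 to 3.40 CPM in saline hearts. The Oas3 call was lost when any heart but saline 2 was left out. Oas1a shares 97.5% of aligned transcript bases with its neighbour Oas1g, so its reads may be split too.

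Among the 6 effectors against virus entry, copying and release, 5 fell and Samhd1 was not called. Mx1 (chr16:97447035-97462907), a dynamin-like GTPase, had 1.52, 0.881 and 0.984 CPM in IL-10 hearts, against 7.91, 3.57 and 5.45 CPM in saline hearts. It had the greatest fold change of the 40 members, a 4.95-fold fall (1.13 ± 0.342 against 5.64 ± 2.17 CPM, SD, n = 3 each, log2 fold change -2.31, SE 0.34, adjusted p = 0.00045 by edgeR). Rsad2, which encodes viperin, an enzyme that makes a chain terminator of RNA synthesis, had 12.8, 13.9 and 16.9 CPM in IL-10 hearts, against 22.0, 26.6 and 20.8 CPM in saline hearts. The groups did not overlap (log2 fold change -0.67, SE 0.15, adjusted p = 0.00637 by edgeR). Cmpk2, the nucleotide kinase encoded next to Rsad2, and Bst2, which encodes tetherin, had log2 fold changes of -0.59 and -0.64. Mx2, annotated as a polymorphic pseudogene in this assembly and 83.0% identical to Mx1 over aligned transcript bases, had -1.44 (adjusted p = 0.0247 by edgeR). The Mx2 call was lost without IL-10 1, IL-10 2 or saline 1, that of Cmpk2 without IL-10 1, IL-10 2, saline 2 or saline 3, and that of Bst2 without IL-10 2 or saline 3. Samhd1, which encodes a hydrolase of deoxynucleotides, had -0.36 (adjusted p = 0.0963 by edgeR).

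The 3 genes of the PARP9 complex, a ubiquitin ligase and its ADP-ribosylating partners, gave no call in hearts. Parp14 had 18.4, 23.2 and 27.8 CPM in IL-10 hearts, against 30.3, 33.2 and 26.6 CPM in saline hearts. Dtx3l had 21.3, 19.5 and 17.9 CPM in IL-10 hearts, against 20.7, 26.5 and 23.8 CPM in saline hearts. In both genes the groups overlapped (log2 fold changes -0.37 and -0.27, adjusted p = 0.102 and 0.184 by edgeR). Parp9 and Dtx3l share 458 exon bases on opposite strands, and reads there cannot be assigned because the kit does not mark strand. Of the PYHIN and TRIM30 genes, Trim30a, which encodes a negative regulator of Toll-like receptor signalling in the mouse, fell. It had 12.2, 16.4 and 18.4 CPM in IL-10 hearts, against 26.9, 22.0 and 20.2 CPM in saline hearts, without overlap (log2 fold change -0.56, SE 0.16, adjusted p = 0.0286 by edgeR). The call was lost without IL-10 1, IL-10 2 or saline 1, at adjusted p = 0.127, 0.0785 and 0.148 by edgeR. The DNA-sensor family genes Ifi203 and Ifi204 were not called, and Ifi203 had 25.1, 25.1 and 31.3 CPM in IL-10 hearts, against 33.5, 34.9 and 31.2 CPM in saline hearts, with IL-10 3 just above the lowest saline heart.

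Of the 6 other induced genes, Lgals3bp and Ifi44 fell. Lgals3bp, which encodes a secreted galectin-binding glycoprotein, had 25.5, 22.9 and 32.4 CPM in IL-10 hearts, against 51.2, 56.5 and 54.3 CPM in saline hearts. The saline hearts were tightly grouped and well above all IL-10 hearts (26.9 ± 4.91 against 54.0 ± 2.64 CPM, SD, n = 3 each, a 2.00-fold fall, SE of the log2 fold change 0.13, adjusted p = 0.000136 by edgeR). Ifi44 had 4.76, 3.16 and 7.03 CPM in IL-10 hearts, against 12.4, 12.0 and 8.84 CPM in saline hearts, again without overlap (log2 fold change -1.15, SE 0.24, adjusted p = 0.00476 by edgeR). Rtp4 and Xaf1 lay close to the threshold (log2 fold changes -0.49 and -0.50, adjusted p = 0.054 and 0.0587 by edgeR). Ifi27l2a and Ifi35 were further from it (-0.26 and -0.17, adjusted p = 0.162 and 0.51 by edgeR). Leaving out 1 heart at a time left between 17 members called lower, without IL-10 2, and 27, without IL-10 3.

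**Figure D3:**
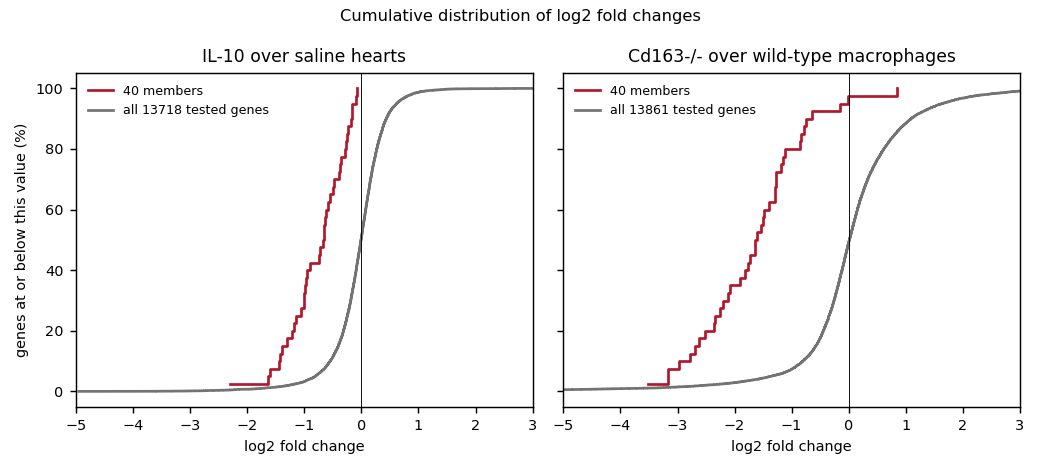
Distribution of log2 fold changes over the 40 members beside that over all tested genes (horizontal axis, log2 fold change, IL-10 over saline hearts in one panel and knockout over wild-type macrophages in the other). The members' medians of -0.66 and -1.62 lie to the left of the medians of all genes, -0.01 and 0.01.

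Upstream of the members, the interferon genes themselves were hardly counted in hearts. Of 20 ligand genes, 18 had 0 counts in all 6 libraries, 0 passed the filter, and Ifnk and Ifne had counts in 1 library each. At this depth these mRNAs were too few to test, which does not show that they were absent. Of 10 receptor and kinase genes, 1 fell and 1 rose, against 6.7% of all tested genes called lower and 6.86% called higher. The gene that rose was Il10rb, which encodes a receptor chain shared by IL-10 and the lambda interferons (log2 fold change 0.38, adjusted p = 0.0223 by edgeR). Ifnar1 and Ifnar2 were not called (-0.19 and -0.05, adjusted p = 0.37 and 0.834 by edgeR), nor were the interferon gamma receptor gene Ifngr2 (0.31, adjusted p = 0.0787) and the kinase gene Jak2 (0.23, adjusted p = 0.323).

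Against 6.7% of all genes called lower and 6.86% higher, 3 of 16 genes of sensing and induction fell and 0 rose in IL-10 hearts. They were Ddx58, which encodes RIG-I (log2 fold change -0.82, adjusted p = 0.00105 by edgeR), the kinase gene Ikbke (-1.52, adjusted p = 0.00735) and Unc93b1, which encodes a chaperone of nucleic-acid-sensing Toll-like receptors (-0.48, adjusted p = 0.0467). Irf3, the constitutive factor that starts interferon transcription, was not called (-0.40, adjusted p = 0.0699 by edgeR). Of 5 other IRF genes 0 were called, with Irf1 at -0.14, Irf2 at 0.14, Irf4 at 0.37 and Irf8 at -0.13 (adjusted p between 0.554 and 0.723 by edgeR). Of 7 feedback genes 1 fell, Adar, which encodes an RNA-editing enzyme (-0.69, adjusted p = 0.00543 by edgeR). Socs3, Ptpn6 and Cish, which encode inhibitors of cytokine signalling, had 0.93, -0.47 and 0.27 (adjusted p = 0.0757, 0.105 and 0.116 by edgeR). Of 57 further interferon-stimulated genes, 25 fell and 3 rose, with a median log2 fold change of -0.51. Slfn9 (-2.18), Rnf213 (-0.93), Lgals9 (-0.81) and the ISG15-conjugating enzyme gene Ube2l6 (-0.72) were among the falls. The 3 that rose, named after their values were seen, were Ifi205, Ifitm1 and Nt5c3, at 1.34, 0.86 and 0.50. Of 12 genes led by interferon gamma, 5 fell and 0 rose, among them Cxcl10, which encodes a chemokine for T cells (-2.60, adjusted p = 2.47e-05 by edgeR), and Gbp4, Gbp3 and Gbp5, which encode guanylate-binding proteins (-0.81, -0.69 and -0.63).

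Some cell markers differed between the heart groups, where 6.7% of all tested genes were called lower and 6.86% higher. All 8 of 8 markers of dividing cells fell, summing to 8.59 to 11.5 CPM in IL-10 hearts and 50.3 to 68.1 CPM in saline hearts. Monocyte markers fell in 4 of 8 and summed to 60.1 to 95.5 CPM in IL-10 hearts, against 133.6 to 310.6 CPM in saline hearts. Most of this was Fn1, itself among the falls, at 44.7 to 77.2 CPM in IL-10 and 117 to 276 CPM in saline hearts. Red blood cell markers fell in 6 of 6, at 301 to 550 CPM in IL-10 hearts and 586 to 1193 CPM in saline hearts. Macrophage markers fell in 1 of 12, Cd68 (log2 fold change -0.61), and their sums overlapped, at 972 to 1087 CPM in IL-10 hearts and 695 to 1175 CPM in saline hearts. Fibroblast markers fell in 3 of 7 and rose in 1, and endothelial markers fell in 2 of 7. Of 5 markers of plasmacytoid dendritic cells, a main source of interferon, Klk1 was at 0 in all hearts and 2 could be tested, with 0 called. The list summed to 79.0 to 92.6 CPM in IL-10 hearts and 74.2 to 102.4 CPM in saline hearts, nearly all of it Tcf4, which other cells express too. Siglech, the more specific marker, had 3, 12 and 3 counts in IL-10 hearts, against 0, 1 and 3 counts in saline hearts, too few to test. T cell markers summed to 2.06 to 3.73 CPM in IL-10 hearts and 1.83 to 3.21 CPM in saline hearts, and NK cell markers to 0.808 to 1.17 CPM in IL-10 hearts and 0.365 to 1.90 CPM in saline hearts. The part of these cell markers in the members' difference was not tested.

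In knockout macrophages the group was also lower than in wild-type macrophages. Of the 40 members, 26 fell and 0 rose, which is 65% called lower, against a background of 26.4% of 13861 tested genes called in either direction, 13.3% called lower and 13.1% called higher. The log2 fold change was below 0 in 39 of 40 members, as it was in 49.1% of all tested genes, and the exception was Ifi27l2a. The median was -1.62 (range -3.51 to 0.84), against 0.01 over all tested genes, and 25 members were called with a fall of 2-fold or more. Both knockout libraries lay below both wild-type libraries in 35 members, or 87.5%, against 34.1% of all genes, and the groups overlapped in 5. These shares too describe a list chosen with earlier results of these data known.

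The replicates of each genotype stood apart. Summed over the members, the level was 2105 and 1662 CPM in knockout macrophages, against 3770 and 6021 CPM in wild-type macrophages. Wild type 2 was above wild type 1 in 40 of 40 members, with a median ratio of 1.76, and knockout 2 was below knockout 1 in 39 of 40 (all but Samhd1), with a median ratio of 0.65. The count of calls rests on 2 libraries a genotype: without knockout 1 it was 8 and without knockout 2 it was 6, while without wild type 1 it was 36 and without wild type 2 it was 22. A genotype left with 1 library was taken to have the spread of the other. Ifih1, Cmpk2, Rsad2, Parp14 and Ifi203 were called in all 4 of these fits. Without knockout 1, and likewise without knockout 2, the calls of Stat2, Nmi, Isg15, Herc6, Ddx60, Eif2ak2, Zbp1, Ifit2, Oas1a, Oas2, Oasl1, Oasl2, Mx1, Parp9, Dtx3l, Trim30a, Ifi35 and Xaf1 were lost. For Stat2, Isg15, Mx1, Oasl1 and Nmi the adjusted p by edgeR was then between 0.0557 and 0.136. Lgals3bp lost its call without knockout 1 (adjusted p = 0.0557 by edgeR), and Ifit1 (0.0556) and Rtp4 lost theirs without knockout 2. Without wild type 2 Eif2ak2, Oas1a, Oasl2 and Rtp4 were not called. Without wild type 1 another 10 members were called, among them Irf7, Usp18 and Irf9 (adjusted p = 0.0129, 0.00912 and 0.0184 by edgeR).

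**Figure D4:**
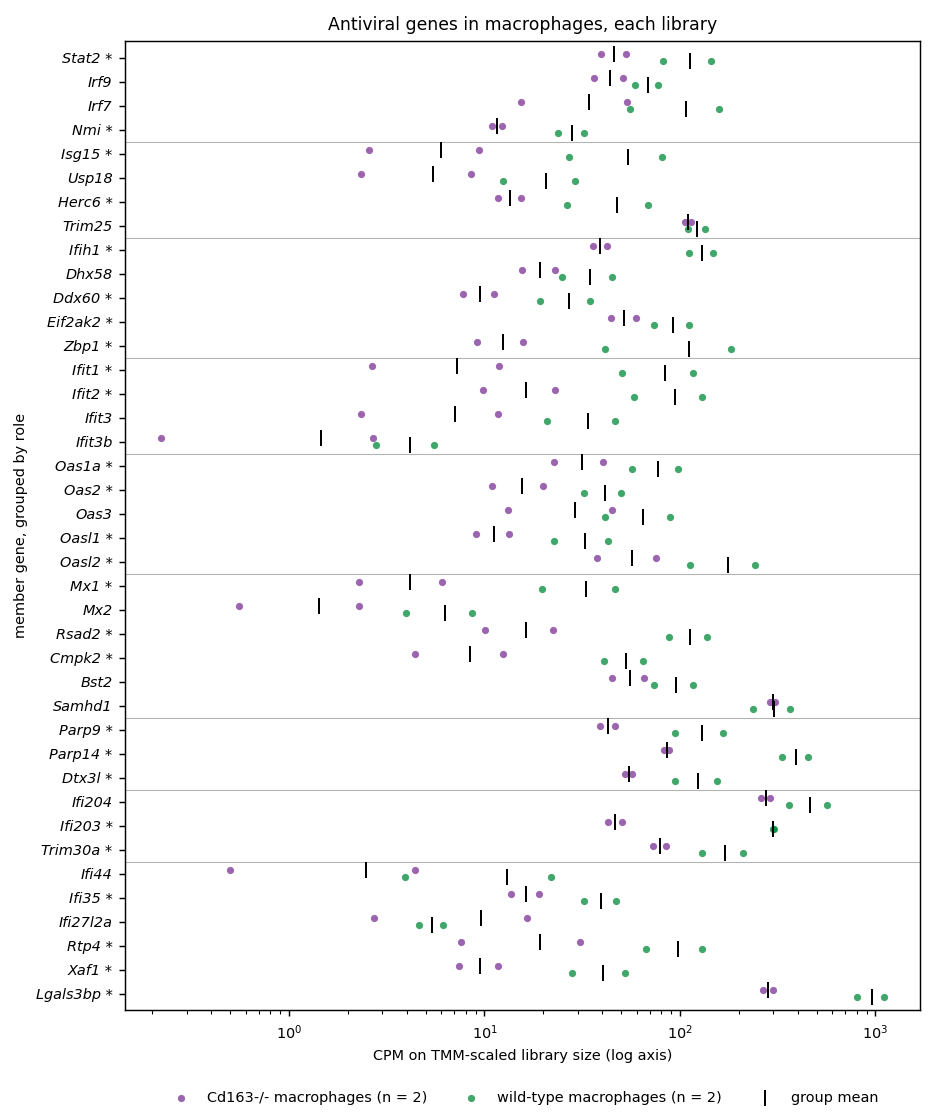
Level of each of the 40 members in each macrophage library (horizontal axis, CPM on a log scale, 1 row per gene, 2 knockout and 2 wild-type libraries as points, a star after the name marking a call). Wild type 2 is the highest point in 39 of 40 rows and knockout 2 the lowest in 39 of 40.

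Stat2 and Nmi fell among the 4 genes of signalling and transcription. Nmi had 12.3 and 10.9 CPM in knockout macrophages, against 23.9 and 32.2 CPM in wild-type macrophages. Stat2 had 52.8 and 39.5 CPM in knockout macrophages, against 81.7 and 143 CPM in wild-type macrophages. Neither gene overlapped between genotypes (Nmi log2 fold change -1.27, SE 0.19, adjusted p = 0.00782, and Stat2 -1.29, SE 0.29, adjusted p = 0.0247, both by edgeR). Irf7 had 53.4 and 15.3 CPM in knockout macrophages, against 55.2 and 159 CPM in wild-type macrophages. Knockout 1 and wild type 1 were nearly level, the standard error was 0.68 around a log2 fold change of -1.64, and the gene was not called (adjusted p = 0.127 by edgeR). Irf9 had 51.0 and 36.5 CPM in knockout macrophages, against 59.1 and 77.3 CPM in wild-type macrophages (log2 fold change -0.64, adjusted p = 0.0685 by edgeR), which was not called.

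Isg15 and Herc6 fell in the ISG15 system. Isg15 had 9.42 and 2.56 CPM in knockout macrophages, against 27.0 and 81.0 CPM in wild-type macrophages. The fall was 8.93-fold, and the libraries of each genotype were far apart (log2 fold change -3.16, SE 0.72, adjusted p = 0.026 by edgeR). Usp18 had 8.57 and 2.33 CPM in knockout macrophages, against 12.4 and 29.0 CPM in wild-type macrophages. The genotypes did not overlap, but the gene was not called (log2 fold change -1.91, SE 0.64, adjusted p = 0.0739 by edgeR). Trim25 had a log2 fold change of -0.15 (adjusted p = 0.457 by edgeR).

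Of the RNA sensors, Ifih1, Ddx60, Eif2ak2 and Zbp1 fell and Dhx58 was not called. Ifih1 had 42.5 and 35.8 CPM in knockout macrophages, against 112 and 147.5 CPM in wild-type macrophages. Its replicates were close together relative to the 3.31-fold fall (log2 fold change -1.73, SE 0.18, adjusted p = 0.00265 by edgeR). Zbp1 had 15.8 and 9.17 CPM in knockout macrophages, against 41.4 and 182 CPM in wild-type macrophages, an 8.92-fold fall in which wild type 2 stood far above the rest. Among the IFIT genes, Ifit1 and Ifit2 fell and Ifit3 and Ifit3b were not called. Ifit1 (chr19:34640871-34650009) had 11.9 and 2.67 CPM in knockout macrophages, against 50.4 and 116 CPM in wild-type macrophages. This was the greatest fold fall of the members in macrophages, 11.4-fold, again with a wide spread inside each genotype (7.26 ± 6.50 against 83.4 ± 46.7 CPM, SD, n = 2 each, log2 fold change -3.51, SE 0.70, adjusted p = 0.0181 by edgeR).

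In the OAS family 4 of 5 members fell, with Oas3 not called. Oasl1 had 13.4 and 9.0 CPM in knockout macrophages, against 22.7 and 42.6 CPM in wild-type macrophages (log2 fold change -1.54, SE 0.34, adjusted p = 0.0244 by edgeR). Oas3 had 45.04 and 13.2 CPM in knockout macrophages, against 41.2 and 88.8 CPM in wild-type macrophages. Knockout 1 was above wild type 1 in this gene (adjusted p = 0.201 by edgeR). Of the 6 effectors, Mx1, Rsad2 and Cmpk2 fell. Rsad2 had 22.4 and 10.1 CPM in knockout macrophages, against 87.4 and 137 CPM in wild-type macrophages, a 6.89-fold fall (log2 fold change -2.79, SE 0.41, adjusted p = 0.00726 by edgeR). Mx1 had 6.08 and 2.28 CPM in knockout macrophages, against 19.6 and 46.5 CPM in wild-type macrophages, a 7.82-fold fall (log2 fold change -2.97, SE 0.57, adjusted p = 0.0158 by edgeR). The genotypes overlapped in Samhd1, at 288.5 and 306.8 CPM in knockout macrophages, against 237 and 366 CPM in wild-type macrophages (adjusted p = 0.956 by edgeR).

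All 3 genes of the PARP9 complex fell, and Parp14, which encodes an ADP-ribosyltransferase, had 88.2 and 82.8 CPM in knockout macrophages, against 331 and 453 CPM in wild-type macrophages. The fall was 4.58-fold (85.5 ± 3.82 against 392 ± 85.7 CPM, SD, n = 2 each, log2 fold change -2.20, SE 0.19, adjusted p = 0.00154 by edgeR). Ifi203 had 50.3 and 43.0 CPM in knockout macrophages, against 299 and 303 CPM in wild-type macrophages, and showed almost no spread between wild-type libraries. It had the smallest adjusted p of the members in macrophages (log2 fold change -2.69, SE 0.14, adjusted p = 0.000479 by edgeR), and its transcript shares 80.9% of aligned bases with that of its neighbour Mndal. Trim30a fell as well and Ifi204 was not called (log2 fold changes -1.11 and -0.75, adjusted p = 0.0226 and 0.0608 by edgeR).

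In the last role, 4 of the 6 other induced genes fell, Ifi35, Rtp4, Xaf1 and Lgals3bp. Lgals3bp had 298 and 265 CPM in knockout macrophages, against 800.0 and 1109 CPM in wild-type macrophages. Its 3.39-fold fall was larger than the spread within either genotype (log2 fold change -1.76, SE 0.21, adjusted p = 0.00394 by edgeR). Ifi44 and Ifi27l2a were not called. Ifi44 had 4.43 and 0.500 CPM in knockout macrophages, against 3.92 and 22.0 CPM in wild-type macrophages. Ifi27l2a had 16.5 and 2.72 CPM in knockout macrophages, against 4.63 and 6.17 CPM in wild-type macrophages, so that its log2 fold change of 0.84 came from knockout 1 (adjusted p = 0.437 by edgeR) and was negative without that library.

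The ligand genes again did not pass the filter, with 0 of 20 tested in macrophages. Ifng, which encodes interferon gamma, had 0 and 0 counts in knockout macrophages, against 1 and 56 counts in wild-type macrophages, so its reads came from wild type 2. Of 10 receptor and kinase genes 5 fell and 0 rose, among them Ifnar1 and Ifnar2 (log2 fold changes -0.62 and -0.79, adjusted p = 0.0176 and 0.014 by edgeR) and the kinase gene Jak2 (-2.15, adjusted p = 0.00463). Of 16 genes of sensing and induction 7 fell, with Ikbke (-2.01) and the adaptor gene Myd88 (-1.08) having the smallest p, and 1, Tlr7, rose (0.50, adjusted p = 0.0474 by edgeR). Irf3 was not called (-0.27, adjusted p = 0.131 by edgeR). The shares of all tested genes were 13.3% called lower and 13.1% called higher.

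Among 4 other IRF genes tested, Irf1 fell (log2 fold change -2.95, adjusted p = 0.00157 by edgeR) and Irf4 rose (1.67, adjusted p = 0.0305). Of 8 feedback genes 5 fell, including Socs3, which encodes an inhibitor of cytokine receptor signalling (-4.63, adjusted p = 0.00349 by edgeR), and the phosphatase gene Ptpn6 (-0.96, adjusted p = 0.0091). Of 57 further interferon-stimulated genes 25 fell and 1 rose, with a median log2 fold change of -1.03. Slfn2 and Ifi205 had the smallest p among them, with log2 fold changes of -2.50 and -5.19. Of 13 genes led by interferon gamma 10 fell and 0 rose, with a median of -4.17, below that of the members. Over all tested genes, 13.3% were called lower and 13.1% higher. Summed, the list had 218.9 and 174.2 CPM in knockout macrophages, against 1353 and 4130 CPM in wild-type macrophages. Wild type 2 thus stood far above wild type 1. Irf1 and Socs1 are in this list and also among the other IRF and feedback genes. Cxcl10 had 1.34 and 1.28 CPM in knockout macrophages, against 144 and 341 CPM in wild-type macrophages (log2 fold change -7.52, adjusted p = 0.00103 by edgeR).

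Some cell markers differed between the macrophage genotypes too, where 13.3% of all tested genes were called lower and 13.1% higher. Macrophage markers rose in 3 and fell in 2 of 12, with Adgre1, which encodes F4/80, and Cd14 being the falls (log2 fold changes -0.80 and -3.33). Fibroblast markers rose in 4 of 7 and fell in 1, summing to 3678 to 4845 CPM in knockout macrophages and 1644 to 2426 CPM in wild-type macrophages. Mesothelial markers rose in 3 of 6, at 216 to 263 CPM in knockout macrophages and 81.0 to 117.8 CPM in wild-type macrophages. Of 8 dividing-cell markers, Mki67 fell (log2 fold change -1.41), and the other 7 had positive fold changes without a call, so that the list's median was 0.65 although its sum was lower, at 169 to 286 CPM in knockout macrophages and 304 to 307 CPM in wild-type macrophages. Neutrophil markers summed to 107.5 to 162.8 CPM in knockout macrophages and 191.4 to 352.2 CPM in wild-type macrophages. Most of this was Csf3r and Mmp8. S100a8 and Csf3r were called lower (-2.58 and -1.71) and Mmp8 higher (1.32). Retnlg was at 0 in all libraries, and S100a9, Ly6g, Mpo and Elane had 0 to 3 counts in each, too few to test. Of 8 monocyte markers, Ly6c2 and Itgal fell (-6.30 and -1.39) and Chil3 rose (1.62). The 8 summed to 5036 to 5297 CPM in knockout macrophages and 4013 to 4763 CPM in wild-type macrophages. Most of this was Fn1, at 4727 and 4761 CPM in knockout and 3669 and 4421 CPM in wild-type macrophages. Fn1 was not called. NK cell markers were low, at 0.548 to 5.72 CPM in knockout macrophages and 0.951 to 11.4 CPM in wild-type macrophages. Of 5 plasmacytoid dendritic cell markers, Klk1 was at 0 in all 4 libraries. Siglech had 2 and 0 counts in knockout macrophages and 0 and 0 counts in wild-type macrophages. Ccr9 fell (-2.97, adjusted p = 0.013 by edgeR) and Tcf4 rose (0.89, adjusted p = 0.0178 by edgeR). The Ccr9 values were near the floor, at 3 and 2 counts in knockout macrophages, against 15 and 20 counts in wild-type macrophages. The part of these markers in the members' difference was not tested.

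Set side by side, 15 members were called lower in both comparisons, which is 65.2% of the 23 calls in hearts and 57.7% of the 26 in macrophages. These shares are close to the 65% of all 40 members called in macrophages and the 57.5% called in hearts. The 15 were Stat2, Isg15, Eif2ak2, Zbp1, Ifit1, Ifit2, Oas1a, Oas2, Oasl1, Oasl2, Mx1, Rsad2, Cmpk2, Trim30a and Lgals3bp, and the comparisons share no library. Irf7, Usp18, Dhx58, Ifit3, Oas3, Mx2, Bst2 and Ifi44 were called in hearts and missed the threshold in macrophages. Nmi, Herc6, Ifih1, Ddx60, Parp9, Parp14, Dtx3l, Ifi203, Ifi35, Rtp4 and Xaf1 were called in macrophages and missed it in hearts. Irf9, Trim25, Ifit3b, Samhd1, Ifi204 and Ifi27l2a were called in neither. Whether the effect of any member differs between the comparisons was not tested, since tissue, agent and genotype all differ. Across the 40 members the log2 fold changes of the comparisons had a Pearson correlation of 0.43 and a Spearman correlation of 0.42, a description over genes that are not independent replicates.

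By role, the median log2 fold change of IL-10 over saline hearts was lowest for the OAS family (-1.19) and the IFIT genes (-0.98) and closest to 0 for the PARP9 complex (-0.27). Of knockout over wild-type macrophages it was lowest for the IFIT genes (-2.39) and the effectors (-2.38), and the PARP9 complex stood at -1.61. Ifi203 and Parp14 had log2 fold changes of -0.29 and -0.37 in hearts and -2.69 and -2.20 in macrophages.

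**Figure D5:**
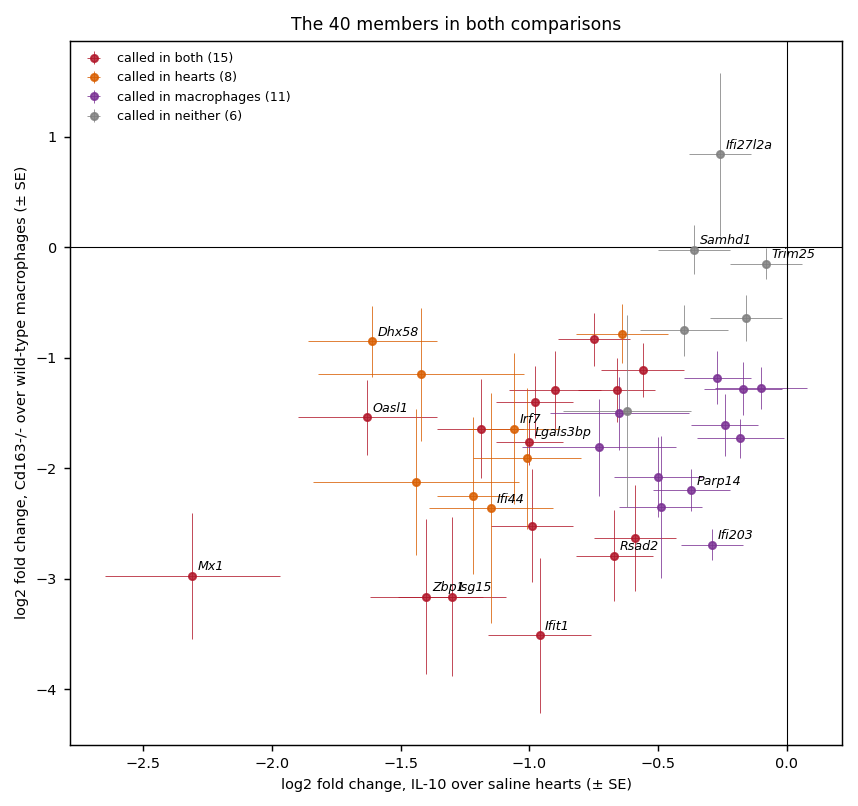
Log2 fold change of each member in macrophages (knockout over wild type) against that in hearts (IL-10 over saline), 1 point per gene. Of the 40 points, 39 lie below 0 on both axes, and Ifi27l2a is the exception, at 0.84 in macrophages.

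Per length of exon sequence (FPKM, counts per kilobase of exon and M counts, with lengths from GENCODE M21), the order of levels differed between tissues. In hearts the highest member was Ifi27l2a, at 64.8 FPKM in IL-10 and 77.8 FPKM in saline hearts, followed by Lgals3bp, at 9.46 FPKM in IL-10 and 19.0 FPKM in saline hearts, and Bst2, at 10.0 FPKM in IL-10 and 15.7 FPKM in saline hearts. Bst2 was above Lgals3bp in IL-10 hearts and below it in saline hearts. In macrophages Lgals3bp was the highest, at 98.9 FPKM in knockout and 335 FPKM in wild-type macrophages, ahead of Ifi204 and of Bst2, which had 61.4 FPKM in knockout and 105 FPKM in wild-type macrophages. Isg15 stood at 4.83 FPKM in IL-10 and 11.9 FPKM in saline hearts, and at 7.92 FPKM in knockout and 71.5 FPKM in wild-type macrophages. The lowest in hearts was Oas3, at 0.120 FPKM in IL-10 and 0.322 FPKM in saline hearts.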

How the data were processed

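Gene counts were deposited as a table of 6 heart libraries and a table of 4 macrophage libraries. The NEBNext Ultra RNA kit, named in the labels' protocols for poly(A) RNA, does not mark strand. Per the submitters' processing notes, the authors aligned reads with HISAT2 2.2.1 and made the deposited counts with featureCounts; GRCm39 and mm10 are both listed, and which of them the counts used is not known. Gene names (52081 of 55357 identifiers), lengths and gene coordinates came from GENCODE M21 on GRCm38, and promoters from RefSeq on GRCm38.p6.

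Each table was fitted alone in R 4.3.3 with edgeR 4.0.16: filterByExpr (minimum count 10, minimum total 15), TMM scaling, and the quasi-likelihood test, IL-10 over saline and knockout over wild type. Benjamini-Hochberg adjustment covered every tested gene, with calls at an adjusted p under 0.05. The SE was taken from the log2 fold change and the F statistic (its size over the root of F). CPM use TMM-scaled library sizes. Intervals are not given for single counts, and the 3-count floor covers counting error only. DESeq2 1.42.0 and limma-voom (limma 3.58.1) were alternatives, with other scaling, filters, replicate blocks and omission of each library. On simulated counts the test called 81% of genes changed 2-fold and 99% of those changed 4-fold in a heart simulation of 13718 genes. In a macrophage simulation of 13861 genes it called 65% and 95%. False calls numbered 9 in the heart simulation and 8 in the macrophage simulation. Whether these shares hold for the members was not tested. Among members lower by more than 4-fold in knockout macrophages, Ifit3 (4.76-fold), Mx2 (4.35-fold) and Ifi44 (5.14-fold) were not called. Isg15, Zbp1, Ifit1, Ifit2, Mx1, Rsad2, Cmpk2, Parp14, Ifi203, Rtp4 and Xaf1 were called.

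The members and the pathway and marker lists were chosen with earlier results of these data known. Values per library are given for Isg15, Usp18, Irf7, Irf9, Stat2 and Mx1 and, in each role, for the 2 members with the smallest p in hearts and the 1 in macrophages. From each pathway list up to 4 genes with the smallest p in hearts and 2 in macrophages are named, and Ifnar1, Ifnar2 and Irf3 in any case. A result under this rule is not reported here. Other genes with values were chosen after they were seen. No sequence of protein is used here.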

Additional observations from a re-analysis of the deposited data

How the results depend on the processing

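No alternative reversed a result for the group. In hearts 21 to 25 members were lower over the other tools, scalings, filters and the replicate block, and 17 to 27 when 1 library was left out. The median log2 fold change of the members stayed between -0.77 and -0.62. In macrophages the 26 calls became 17 with the replicate block, 37 with the crossed replicate block, which was chosen after seeing the data, 37 with no filter on low counts, and 6 (without knockout 2) to 36 (without wild type 1) with 1 library left out, where the members' median lay between -1.96 and -1.02. Members called higher numbered 0 in macrophages, but 1 (Ifi27l2a) with no filter, and 0 to 1 with 1 library left out. All genes called ranged from 897 (without IL-10 2) to 1968 in hearts and from 734 to 3811 in macrophages when 1 library was left out. To look for pairs, each gene's group mean of the log2 level was subtracted first. The remainders of same-numbered libraries correlated at -0.315, 0.107 and -0.014 in hearts and -0.168 in macrophages, so the numbers were not taken as pairs. With 2 libraries a genotype the remainders mirror each other, so every macrophage pairing gives 0.168 in size and differs only in sign. Upper-quartile scaling gave 716 higher and 1120 lower genes in hearts, against 941 and 919, and 2310 and 1403 in macrophages, against 1817 and 1846. It moved the median of all genes in macrophages to 0.12, and changes there are read relative to that. Samhd1 in macrophages turned positive with upper-quartile scaling, voom, either block, and without knockout 1 or wild type 2, and Trim25 in hearts without IL-10 2. With the replicate block the macrophage calls of Stat2, Isg15, Herc6, Eif2ak2, Zbp1, Oas1a, Oas2, Oasl2 and Rtp4 and the heart calls of Oas3 and Trim30a were lost. The cause of these shifts was not tested. Members that rest on few counts include Oas3 (10 to 53 counts a library), Mx2 (9 to 47) and Mx1 (12 to 108) in hearts. In macrophages they include Mx2 (10 to 136) and Ifit3b (4 to 87).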

Other observations

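Ifi205, a PYHIN gene beside Ifi203 and Ifi204, was called in opposite directions and was chosen after its values were seen. Its log2 fold change was 1.34 for IL-10 over saline hearts (adjusted p = 0.00171 by edgeR) and -5.19 for knockout over wild-type macrophages (adjusted p = 0.00089 by edgeR). Whether the effects differ was not tested. Cxcl9, which encodes a chemokine induced by interferon gamma, had 0.399 and 0.445 CPM in knockout macrophages, against 1.66 and 123 CPM in wild-type macrophages, so its level came from wild type 2, the library that also held the Ifng counts.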
